A study of Homo sapiens with 9 samples.

Results

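Potassium channel genes were taken as all genes of the deposited tables whose symbol begins with KCN, followed by family letters, a number and at most a final letter. The rule found 97 genes among the 58381 of the count table, covering pore-forming subunits and the auxiliary subunits that carry the same stem. Symbols with a hyphen or another ending, such as antisense transcripts, were left out, so 6 further KCN symbols were not members. Expression was measured by RNA-seq in TC-32, an established human Ewing sarcoma cell line that carries the EWSR1::FLI1 fusion. The question behind the series was which genes respond to ETS1, a transcription factor, in cells that keep the fusion, and 3 groups of 3 libraries were compared. RFP cells carried the lentiviral pLOC vector with a red fluorescent protein. ETS1-Low and ETS1-High cells carried the same vector with a human ETS1 cDNA, and ETS1-High was defined by an ETS1 level like that of cells depleted of the fusion. Transduced cells were selected with puromycin and sorted as single cells. The number of clones per group is not given, nor whether RFP is a clone, so the p-values measure only the spread between libraries, which may be technical, and a difference between clones and an effect of ETS1 cannot be told apart.

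Potassium channels are membrane proteins that let potassium ions leave or enter a cell and so set its resting voltage and end its electrical impulses. Voltage-gated channels open when the membrane depolarises, inward rectifiers and 2-pore-domain channels carry background currents, and a further class opens on a rise of calcium or sodium inside the cell. Auxiliary subunits do not form a pore but change the gating, surface level or assembly of pore-forming partners. Potassium channels are best known from nerve and muscle, and several also influence volume, migration and division of tumour cells.

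The 9 libraries held between 39484704 and 46654734 expected counts each. ETS1 itself, the check of the labels, stood at 1.81, 2.03 and 2.15 CPM (counts scaled to library size, with sizes normalised by the trimmed mean of M values) in RFP. It reached 10.6, 10.9 and 10.3 CPM in ETS1-Low and 19.4, 18.2 and 19.7 CPM in ETS1-High, which follows the order of the labels. Ewing sarcoma markers were present in every group, with a summed level of 953 to 976 CPM in RFP, 1239 to 1263 in ETS1-Low and 1274 to 1312 in ETS1-High. Markers of other cell types also moved with the groups. The summed level of 5 fibroblast markers was 215 to 238 CPM in RFP, 373 to 376 in ETS1-Low and 493 to 528 in ETS1-High, with COL3A1 the main contributor and LUM at 0 in every RFP and ETS1-Low library. Not all of them rose: PDGFRA fell from a mean of 12.8 CPM in RFP to 3.72 in ETS1-Low and 2.95 in ETS1-High, and COL1A1 stood at 39.3, 28.3 and 50.9 CPM. The 5 epithelial markers summed to 78.1 to 82.5, 156 to 165 and 110 to 112 CPM, almost all of it KRT18. The 5 leukocyte markers summed to 1.15 to 1.66, 0.18 to 0.29 and 0.27 to 0.63 CPM, with CD3E at 0. Their part in the results on potassium channel genes was not tested. In bulk RNA, fewer cells of a type and less RNA per cell cannot be told apart.

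Most potassium channel genes were silent or nearly so. Only 39 of the 97 passed the filter on low counts and were tested. Of the 58 others, 13 had no count in any library, 25 had some count but at most 3 in each, and 20 exceeded 3 in a library, up to 16.3 expected counts for KCNMB3, an auxiliary subunit of calcium-activated channels. The untested genes were 17 of 30 voltage-gated, 5 of 10 silent modifier, 11 of 16 inward rectifier, 11 of 15 2-pore-domain, 5 of 8 calcium- or sodium-activated and 9 of 18 auxiliary genes. All members together held 0.0694% to 0.0715% of a library's counts in RFP, 0.0577% to 0.0598% in ETS1-Low and 0.0724% to 0.0752% in ETS1-High.

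Relative to RFP, the tested potassium channel genes fell more often than they rose in both ETS1 groups. In ETS1-High 23 of 39 were lower, beside 37.2% of all 17235 genes tested, and 11 were higher, beside 37% of all genes. Together 87.2% were called, beside 74.2% of all genes (adjusted p under 0.05 by the edgeR quasi-likelihood test, adjusted with the Benjamini-Hochberg method over all genes). A change of at least 2-fold was called for 21 of the 39, or 53.8% beside 21% of all genes. Of these, 18 were lower (11.4% of all genes) and 3 higher (9.64% of all genes). Their median log2 fold change was -0.85, beside -0.01 over all genes.

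In ETS1-Low against RFP 20 were lower, beside 36.2% of all genes, and 15 higher, beside 37.9%, which made 89.7% called beside 74.1%. Of these, 25 changed at least 2-fold, 64.1% beside 20.6% of all genes, with 17 down (12.2% of all genes) and 8 up (8.47%). The median was -0.50 beside 0.01. Between the ETS1 groups 17 genes were lower in ETS1-High, beside 29.3% of all genes, and 5 higher, beside 29.9%. The share called, 56.4% beside 59.2%, lay at the background. The 2-fold calls there were 9, or 23.1% beside 9.74% of all genes, of which 8 were lower (3.69% of all genes) and 1 higher (6.05%). The median was -0.45, beside a median of all genes near 0. Because both contrasts with RFP use the same RFP libraries, and the contrast between ETS1 groups uses the libraries of both, these counts are not independent of each other. Members that passed the filter only through the group where they are high had to differ, so the shares describe the tested members and support nothing further. Requiring at least 10 counts in every library removes genes that are low in any group. Some of these fell, as KCNQ3 did, and some rose, as KCNQ5 and KCNV1 did. This filter left 11 lower and 9 higher in the ETS1-High contrast with RFP, and 8 lower and 11 higher in that of ETS1-Low. Among the genes kept, lower genes thus did not outnumber higher ones in ETS1-Low. Shares of all genes were not computed under this filter, so no background stands beside these counts. These counts describe only those genes and do not decide the balance of the family.

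Promoter sequences are shown for 5 members that the results turn on, chosen after their values were seen. KCNA2, KCNC4 and KCNT2 fell in both ETS1 groups, KCNK6 rose in both, and KCNQ5 rose in ETS1-High. Each window runs from 250 bases before to 50 after a RefSeq start (GRCh38.p14), printed 5′ to 3′ on the strand of the gene. KCNA2 (chr1:110606309-110606608, minus strand) is a Shaker-type channel of axons, and a second window of its promoters held no match. KCNC4 (chr1:110210064-110210363, plus strand) is a fast Shaw-type channel, and KCNT2 (chr1:196608391-196608690, minus strand) is a sodium-activated channel. KCNK6 (chr19:38319595-38319894, plus strand) is a 2-pore-domain channel, and KCNQ5 (chr6:72621814-72622113, plus strand) is a subunit of the M-current. Capitals mark CGGAAG, an ETS core with its flanks, in KCNA2 and KCNC4, its reverse complement CTTCCG in KCNT2, and GGAAGGAA, a tandem GGAA, in KCNK6. KCNQ5 has no match to either. The 5 do not show a pattern of the family. The core also stood in a window of KCNE3 and of KCNAB2, which rose, and in 1 of 5 windows of KCNH2, which fell. A window of KCNJ14, called in opposite directions, and of KCNK18, never called, held it too. It stood in none of KCND2, KCNF1, KCNH1, KCNJ4 and KCNN3, which fell, and in none of KCNS3, which rose. The tandem GGAA also stood in a window of KCNIP1, a low gene that fell in both ETS1 groups. KCNE4 and KCNG1 had no window in the table.
KCNA2: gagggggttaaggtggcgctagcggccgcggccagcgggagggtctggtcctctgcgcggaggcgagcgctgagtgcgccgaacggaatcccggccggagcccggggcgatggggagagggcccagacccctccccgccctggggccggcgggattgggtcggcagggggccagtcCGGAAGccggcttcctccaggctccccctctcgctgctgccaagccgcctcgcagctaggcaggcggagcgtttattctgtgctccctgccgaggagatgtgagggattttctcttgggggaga
KCNC4: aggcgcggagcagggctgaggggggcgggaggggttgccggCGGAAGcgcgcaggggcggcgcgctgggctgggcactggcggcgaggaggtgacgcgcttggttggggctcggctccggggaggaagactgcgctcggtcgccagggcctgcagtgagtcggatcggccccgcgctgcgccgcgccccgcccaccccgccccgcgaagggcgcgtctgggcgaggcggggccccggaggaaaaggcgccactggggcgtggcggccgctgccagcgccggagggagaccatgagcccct
KCNT2: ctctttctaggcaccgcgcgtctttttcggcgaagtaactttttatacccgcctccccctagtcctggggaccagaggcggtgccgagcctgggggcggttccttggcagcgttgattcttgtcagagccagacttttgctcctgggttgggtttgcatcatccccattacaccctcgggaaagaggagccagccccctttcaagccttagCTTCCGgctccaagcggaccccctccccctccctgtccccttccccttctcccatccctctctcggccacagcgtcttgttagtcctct
KCNK6: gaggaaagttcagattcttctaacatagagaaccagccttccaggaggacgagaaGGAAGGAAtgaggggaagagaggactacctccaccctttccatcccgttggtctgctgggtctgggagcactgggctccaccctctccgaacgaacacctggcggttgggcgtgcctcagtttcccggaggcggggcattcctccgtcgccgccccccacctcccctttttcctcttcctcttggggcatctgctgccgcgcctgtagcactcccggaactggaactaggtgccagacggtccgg
KCNQ5: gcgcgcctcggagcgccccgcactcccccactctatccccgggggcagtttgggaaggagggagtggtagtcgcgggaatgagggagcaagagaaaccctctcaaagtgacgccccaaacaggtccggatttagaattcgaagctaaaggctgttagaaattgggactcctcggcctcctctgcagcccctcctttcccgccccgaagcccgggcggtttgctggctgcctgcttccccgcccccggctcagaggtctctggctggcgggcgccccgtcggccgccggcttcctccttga

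Over all members, 71 matched the RefSeq promoter table with 109 windows of 300 bases, and both strands were searched. CGGAAG stood in 15 windows (13.8%), beside 19.5% of all 35116 promoters of that length. Over the tested members it stood in 8 of 41 windows (19.5%), beside 27.9% for all tested genes. The longer form CGGAAGT, which contains CGGAAG, stood in 0 of the 109 windows, beside 6.83% of all promoters. GGAAGGAA stood in 6 windows (5.50%), beside 3.67%, and in 2 of the 41 windows of tested members. These shares describe letters in these windows and say nothing of binding.

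Voltage-gated channels form the depolarisation-activated pore, and their summed level dropped in both ETS1 groups. That sum, in FPKM (fragments scaled to gene length and library size, which allows levels of genes of different length to be set side by side), was 53.8 ± 0.963 in RFP, 16.5 ± 0.478 in ETS1-Low and 14.2 ± 0.505 in ETS1-High (SD, n = 3). Of the 13 tested genes, 10 were lower and 2 higher in ETS1-High against RFP. In ETS1-Low 8 were lower and 3 higher, and in ETS1-High against ETS1-Low 6 were lower and 3 higher. For this and each class below, 37.2% of all tested genes were lower and 37% higher in ETS1-High against RFP. The shares were 36.2% and 37.9% in ETS1-Low against RFP, and 29.3% and 29.9% in ETS1-High against ETS1-Low. Few genes were tested per class, so the class counts only describe those genes.

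KCNA2, the most abundant pore-forming gene in RFP, changed in a graded way. It stood at 263, 269 and 258 CPM in the RFP libraries, 47.9, 51.8 and 53.4 in ETS1-Low and 15.4, 13.4 and 14.2 in ETS1-High. The groups lay far apart and no libraries overlapped. The log2 fold change was -2.36 ± 0.036 (SE, adjusted p = 5.81e-44, edgeR) in ETS1-Low and -4.20 ± 0.042 (adjusted p = 2.53e-51) in ETS1-High, and the further drop from ETS1-Low to ETS1-High was -1.84 ± 0.047 (adjusted p = 4.64e-34). In FPKM its share of all pore-forming genes other than silent modifiers was 40.6% in RFP, 14.9% in ETS1-Low and 4.78% in ETS1-High. The sum over those genes was itself 77.5 FPKM in RFP, 38.6 in ETS1-Low and 34.4 in ETS1-High, so a share can rise without a higher level. KCNA2 spans positions 110519837 to 110631474 of chromosome 1 (GENCODE v44), and KCNC4 lies nearby at 110210314 to 110283100. KCNC4 fell as well, from a mean of 6.54 CPM in RFP to 2.06 in ETS1-Low and 1.21 in ETS1-High, and was called lower in all 3 comparisons. KCNA3, a lymphocyte channel of the same cluster named after its values were seen, had 3, 3 and 2 counts in RFP and 0 in the 6 other libraries.

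KCNQ3 was at or near 0 in both ETS1 groups. This subunit joins KCNQ5 in the M-current, which damps repetitive firing. It had 649, 643 and 617 counts in RFP, 0 in all ETS1-Low libraries and 1, 0 and 0 in ETS1-High. Against a floor of 3 counts per library it was at least 181.7-fold lower in ETS1-Low, and the ratio for ETS1-High was 1713 (95% exact interval 307 to 67680, for counting error only). KCNQ5 moved the other way and in a single group. It stood at 0.17, 0.21 and 0.10 CPM in RFP, 0.16, 0.07 and 0.20 in ETS1-Low and 1.57, 1.18 and 1.52 in ETS1-High. Only the ETS1-High libraries stood apart, with a log2 fold change of 3.13 ± 0.33 against RFP (adjusted p = 3.77e-12, edgeR) and 3.34 ± 0.35 against ETS1-Low (adjusted p = 6.66e-12). At these counts KCNQ5 remained a low gene, and antisense transcripts overlap its exons.

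KCNH2, the hERG channel that repolarises heart muscle, was reduced but stayed among the leading channels. It stood at 53.6, 55.8 and 55.2 CPM in RFP, 27.1, 25.8 and 28.8 in ETS1-Low and 35.3, 35.5 and 33.3 in ETS1-High. The libraries of the groups did not overlap, and ETS1-High lay above ETS1-Low by 0.35 ± 0.044 on the log2 scale (adjusted p = 1.4e-09, edgeR). Its FPKM share of the pore-forming genes was 21.6% in RFP, 19.2% in ETS1-Low and 27.6% in ETS1-High. KCNH1, a relative known as EAG1, was lost: 1.24, 0.91 and 1.03 CPM in RFP, 0.01, 0.11 and 0 in ETS1-Low and 0 in all ETS1-High libraries, so at least 15.1-fold lower in ETS1-High. KCNH1 overlaps other genes on the same and the opposite strand, and its counts were not whole in 4 libraries.

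KCND2, an A-type channel that opens briefly below the firing threshold, had 50, 53 and 50 counts in RFP. It had 0, 0 and 2 counts in ETS1-Low and 4, 1 and 3 in ETS1-High. Both ETS1 groups thus lay near the floor, with a ratio to ETS1-Low of 65.8 (95% exact interval 17.9 to 549) and a log2 fold change of -4.04 ± 0.44 in ETS1-High (adjusted p = 6.75e-12, edgeR). The class also held a gene that rose in all 3 comparisons. KCND1, of the same family and named after its values were seen, had means of 2.88 CPM (RFP), 3.44 CPM (ETS1-Low) and 4.23 CPM (ETS1-High), small steps of which the first had an adjusted p of 0.0475 (edgeR).

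**Figure D1:**
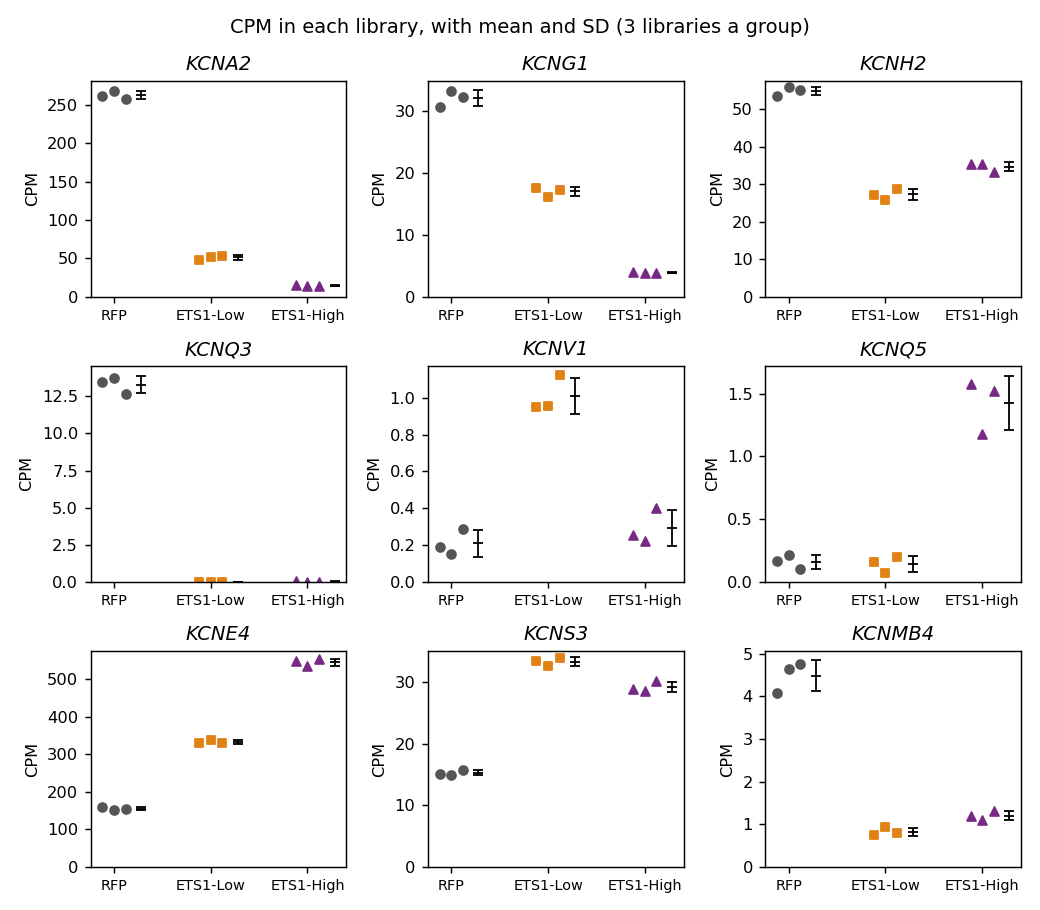
CPM of 9 potassium channel genes in each library (points) by group, with the mean and SD of 3 libraries beside them and every axis starting at 0. KCNA2 and KCNG1 step down from RFP to ETS1-High, KCNE4 steps up, KCNQ3 is at or near 0 in both ETS1 groups, KCNV1 peaks in ETS1-Low and KCNQ5 is raised in ETS1-High.

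Silent modifiers resemble voltage-gated subunits but form no working channel of their own, and they change the currents of the KCNB family instead. Of 5 tested genes, 2 were lower and 1 higher in ETS1-High against RFP, and 3 were higher and 2 lower in ETS1-Low. In ETS1-High against ETS1-Low 4 were lower and none higher. KCNG1 stood at 30.7, 33.2 and 32.3 CPM in RFP, 17.5, 16.1 and 17.3 in ETS1-Low and 3.99, 3.76 and 3.81 in ETS1-High. No libraries overlapped between groups, and the step between the ETS1 groups, -2.14 ± 0.071 on the log2 scale (adjusted p = 8.16e-31, edgeR), was larger than the step of -0.92 ± 0.054 from RFP to ETS1-Low (adjusted p = 3.41e-21). KCNF1, a related modifier, followed with means of 2.32, 1.28 and 0.48 CPM.

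KCNS3, which slows the closing of KCNB channels, rose. It stood at 15.1, 15.0 and 15.7 CPM in RFP, 33.5, 32.6 and 34.0 in ETS1-Low and 28.8, 28.6 and 30.2 in ETS1-High. ETS1-Low lay highest, with a log2 fold change of 1.13 ± 0.048 against RFP (adjusted p = 8.26e-27, edgeR) and 0.93 ± 0.048 for ETS1-High (adjusted p = 2.57e-23). KCNV1, another modifier of KCNB channels, was raised in ETS1-Low and had a mean of 1.01 CPM there, beside 0.21 in RFP and 0.29 in ETS1-High. Its log2 fold change of 2.26 ± 0.33 in ETS1-Low (adjusted p = 2.46e-08) contrasts with 0.49 ± 0.40 in ETS1-High (adjusted p = 0.255), and the difference between them was itself called at -1.77 ± 0.32 (adjusted p = 3.23e-06). The summed FPKM of the class was 31.5 ± 1.27 in RFP, 27.6 ± 0.410 in ETS1-Low and 16.9 ± 0.321 in ETS1-High. KCNG1 gave 22.1, 10.5 and 2.48 FPKM of these sums, and KCNS3 gave 8.08, 16.1 and 14.0. The fall of the sum thus follows KCNG1 and is not a trait of the whole class.

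Inward rectifiers pass potassium more easily into the cell than out of it and hold the resting voltage. Of 5 tested genes, 3 were lower and 2 higher in ETS1-High against RFP, and in ETS1-Low 2 were lower and 3 higher. In ETS1-High against ETS1-Low 3 were lower and none higher. KCNJ12, a strong rectifier of heart muscle, stood at 16.5, 16.7 and 18.1 CPM in RFP, 4.23, 4.62 and 5.20 in ETS1-Low and 2.82, 2.94 and 3.07 in ETS1-High. The groups did not overlap, and the log2 fold change in ETS1-High was -2.54 ± 0.085 (adjusted p = 3.12e-31, edgeR). Reads of KCNJ12 may be divided with its near-identical copy KCNJ18, so its level is uncertain. KCNJ4, another strong rectifier, fell from 2.18, 2.56 and 2.75 CPM in RFP to 0.21, 0.29 and 0.20 in ETS1-Low and 0.38, 0.29 and 0.16 in ETS1-High, where the ETS1 groups overlapped.

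KCNJ3 is a subunit of the G-protein-gated channel that slows the heart and quiets neurons. It stood at 19.0, 18.0 and 19.2 CPM in RFP, 32.0, 31.7 and 32.0 in ETS1-Low and 32.9, 32.4 and 31.9 in ETS1-High. Both ETS1 groups lay above RFP and overlapped each other. The log2 fold change was 0.77 ± 0.046 in ETS1-Low (adjusted p = 7.2e-21, edgeR) and 0.79 ± 0.045 (adjusted p = 1.9e-21) in ETS1-High. Its neighbours on chromosome 2 moved too: the median log2 fold change of 48 tested genes within 10 Mb on either side was 0.59 in ETS1-Low and 1.03 in ETS1-High. KCNJ3 thus lay 0.18 above its neighbourhood in ETS1-Low and -0.24 relative to it in ETS1-High. KCNJ11, the pore of the ATP-sensitive channel of the pancreas, had means of 1.17, 2.37 and 1.55 CPM. Its rise in ETS1-Low was 1.02 ± 0.18 (adjusted p = 1.51e-06), while that of 0.41 ± 0.19 in ETS1-High (adjusted p = 0.0466) was lost under several alternatives, the DESeq2 Wald test among them. KCNJ14, an inward rectifier named after its values were seen, stood at 4.14, 4.37 and 3.89 CPM in RFP, 5.82, 5.85 and 4.61 in ETS1-Low, and at 2.87 to 3.53 in ETS1-High, so that RFP lay between the ETS1 groups.

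2-pore-domain channels conduct the leak current of cells at rest. Of 4 tested genes, 2 were lower and 1 higher in both ETS1 groups against RFP, and none was called between the ETS1 groups. KCNK6 stood at 0.96, 1.17 and 0.94 CPM in RFP, 3.49, 4.27 and 3.42 in ETS1-Low and 2.89, 3.14 and 3.34 in ETS1-High. Every ETS1 library lay above every RFP library, and the log2 fold change was 1.87 ± 0.15 in ETS1-Low (adjusted p = 9.83e-16, edgeR) and 1.61 ± 0.15 in ETS1-High (adjusted p = 2.63e-13). KCNK13, a leak channel that gives small currents and was named after its values were seen, had 28, 28 and 35 counts in RFP and 0 in all ETS1 libraries. Its level was at least 8.65-fold below RFP in ETS1-Low and at least 9.03-fold below it in ETS1-High. KCNK18, the spinal cord leak channel known from migraine, was the only tested member called in none of the 3 comparisons, with means of 0.30, 0.26 and 0.15 CPM.

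Among channels opened by calcium or sodium 3 genes were tested, of which 2 were lower and 1 higher in both ETS1 groups against RFP. None was called between the ETS1 groups. KCNT2 had 87, 89 and 91 counts in RFP, 2, 1 and 0 in ETS1-Low and 1, 1 and 1 in ETS1-High. Both ETS1 groups lay at the floor, with ratios of 76.6 for ETS1-Low (95% exact interval 25.9 to 374) and 79.8 for ETS1-High (27.0 to 390). KCNN3, a small-conductance calcium-activated channel, fell from 3.64, 3.69 and 2.93 CPM in RFP to 0.21, 0.38 and 0.51 in ETS1-Low and 0.13, 0.20 and 0.34 in ETS1-High. The ETS1 groups overlapped and lay below every RFP library, by -3.19 ± 0.23 and -3.91 ± 0.25 on the log2 scale (adjusted p = 1.1e-17 and 1.32e-19, edgeR).

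KCNN1, of the same family, was the class's most abundant gene per length. It stood at 13.6, 14.7 and 15.0 CPM in RFP, 16.2, 14.9 and 17.7 in ETS1-Low and 16.9, 17.0 and 15.4 in ETS1-High. Its rise was small, with log2 fold changes of 0.18 ± 0.064 and 0.19 ± 0.064 (adjusted p = 0.0125 and 0.00723, edgeR), ETS1-Low overlapped RFP, and both calls were lost in some alternatives. The median of its 355 neighbours within 10 Mb was 0.18 in each of these contrasts, close to its own change. KCNN1 made up 12.4% of the FPKM of pore-forming genes other than silent modifiers in RFP, 26.1% in ETS1-Low and 28.3% in ETS1-High. The level of KCNN1 changed little, at 9.64, 10.1 and 9.76 FPKM, while the sum over those genes fell. KCNJ3 went from 5.70% to 17.4% and 19.6% of the same sum.

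**Figure D2:**
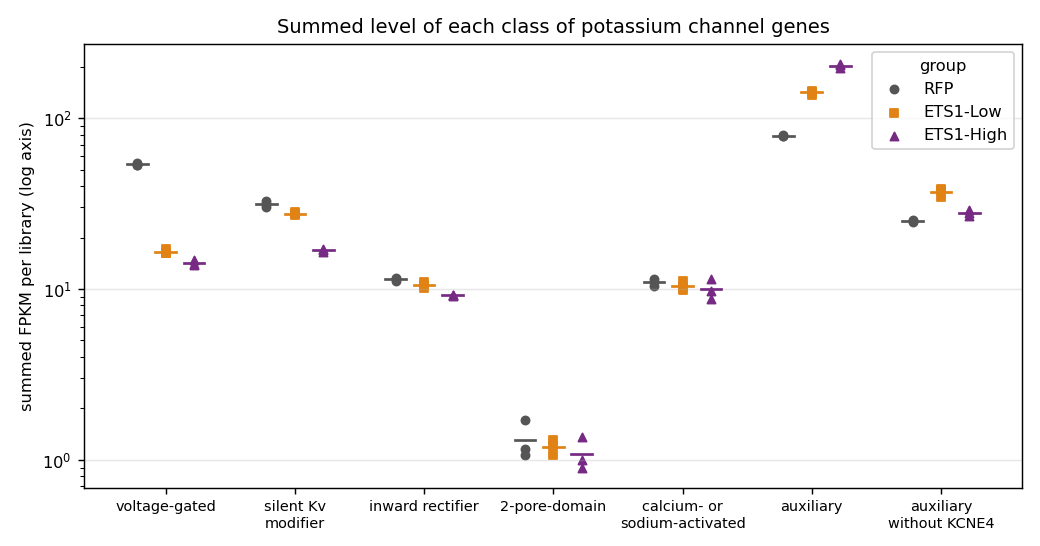
Summed FPKM of each class of potassium channel genes in every library (points, log axis), with a bar at the mean of 3 libraries. The voltage-gated sum drops from 53.8 in RFP to 14.2 in ETS1-High while the auxiliary sum climbs from 78.9 to 203, and without KCNE4 the auxiliary sum is highest in ETS1-Low. KCNA2 gives 31.4 FPKM of the voltage-gated sum in RFP and 1.64 in ETS1-High.

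Auxiliary subunits were split. Of 9 tested, 4 were higher and 4 lower in each ETS1 group against RFP, and in ETS1-High against ETS1-Low 2 were higher and 4 lower. KCNE4 was the most abundant potassium channel gene per length in every group. This single-pass protein suppresses several voltage-gated channels, KCNQ1 and KCNA3 among them. It stood at 158, 152 and 155 CPM in RFP, 328, 338 and 331 in ETS1-Low and 547, 535 and 552 in ETS1-High. Groups were far apart, with log2 steps of 1.10 ± 0.030 from RFP to ETS1-Low (adjusted p = 3.64e-35, edgeR) and 0.71 ± 0.029 from ETS1-Low to ETS1-High (adjusted p = 3.87e-27). In FPKM KCNE4 made up 28.7% of all members in RFP, 50.4% in ETS1-Low and 68.9% in ETS1-High. Its expected counts were not whole in any of the 9 libraries, so some reads were divided with other genes or transcripts, and the median of its 119 neighbours on chromosome 2 was 0.24 in ETS1-Low and 0.48 in ETS1-High.

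KCNMB4, the neuronal modifier of the large calcium-activated channel, fell. It stood at 4.07, 4.63 and 4.75 CPM in RFP, 0.74, 0.93 and 0.78 in ETS1-Low and 1.19, 1.09 and 1.30 in ETS1-High. All ETS1 libraries lay below RFP, by -2.44 ± 0.16 and -1.91 ± 0.15 on the log2 scale (adjusted p = 2.18e-19 and 1.54e-16, edgeR). KCNAB2, the cytoplasmic beta subunit that binds KCNA channels, rose in ETS1-Low, from 6.09, 5.72 and 6.58 CPM to 13.1, 13.7 and 14.1, and stood at 7.46, 7.19 and 6.90 in ETS1-High. The ETS1-Low rise was 1.15 ± 0.075 (adjusted p = 2.55e-19). The ETS1-High difference from RFP was 0.23 ± 0.080 in counts (adjusted p = 0.0102), and it turned to -0.16 in the authors' FPKM with a pseudocount of 1. KCNAB2 overlaps an antisense gene. KCNAB3, another beta subunit, and KCNE3, a partner of KCNQ1 in gut epithelium, were named after their values were seen. Mean CPM of KCNAB3 was 14.7 for RFP, 26.3 for ETS1-Low and 19.3 for ETS1-High. For KCNE3 it was 14.4, 27.9 and 25.4 in the same order, and both were called higher against RFP and lower in ETS1-High than in ETS1-Low.

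**Figure D3:**
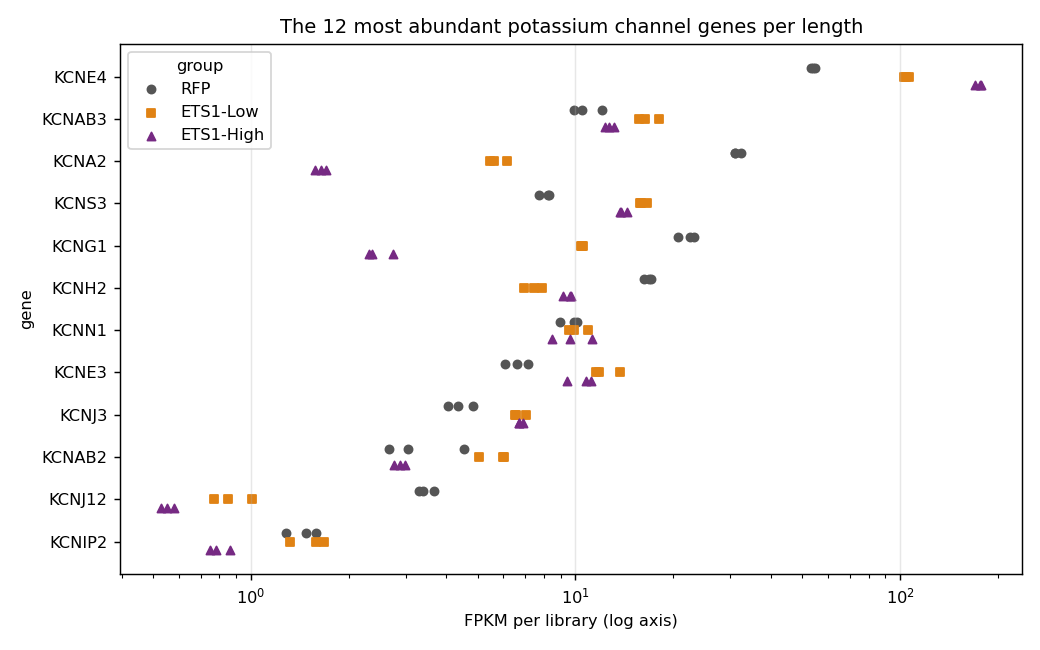
FPKM in each library of the 12 most abundant potassium channel genes, on a log axis, ordered by their mean over all libraries. KCNE4 leads in every group, while KCNA2 moves from 31.4 FPKM in RFP to 1.64 in ETS1-High.

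Per length, the order of the genes changed between groups. In RFP it ran KCNE4 at 53.9 FPKM, KCNA2 at 31.4, KCNG1 at 22.1 and KCNH2 at 16.7, and the libraries of none of these neighbours overlapped. In ETS1-Low KCNE4 (105) was followed by KCNAB3 (16.7) and KCNS3 (16.1), whose libraries overlapped, and then by KCNE3 (12.3). In ETS1-High it was KCNE4 (175), KCNS3 (14.0), KCNAB3 (12.7) and KCNE3 (10.4). KCNE3, KCNN1 (9.76) and KCNH2 (9.49) overlapped in that group. KCNA2 stood at the ninth place in ETS1-Low with 5.75 FPKM and the tenth in ETS1-High with 1.64. Members with at least 1 FPKM numbered 17 to 18 per library in RFP, 13 to 15 in ETS1-Low and 11 in ETS1-High. The sum over all members nevertheless rose, from 188 ± 2.14 FPKM in RFP to 208 ± 4.60 and 254 ± 4.34 (SD, n = 3), of which KCNE4 gave 53.9, 105 and 175. The rise in ETS1-Low holds per length only. In expected counts the members' share was lower in every ETS1-Low library than in any RFP library.

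Taking the 3 calls of each gene side by side, 11 of the 39 tested members (28.2%, beside 12.8% of all tested genes) were lower than RFP in both ETS1 groups with no call between them. A further 6 (KCNA2, KCNC4, KCNF1, KCNG1, KCNH1 and KCNJ12) were lower in all 3 comparisons, 15.4% beside 6.88%. KCNE4 and KCND1 were higher in all 3, 5.13% beside 9.48%. KCNAB2, KCNAB3, KCNE3, KCNJ11 and KCNS3 were higher than RFP in both groups but lower in ETS1-High than in ETS1-Low, 12.8% beside 8.21%. The comparisons share libraries, and these shares carry no test.

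**Figure D4:**
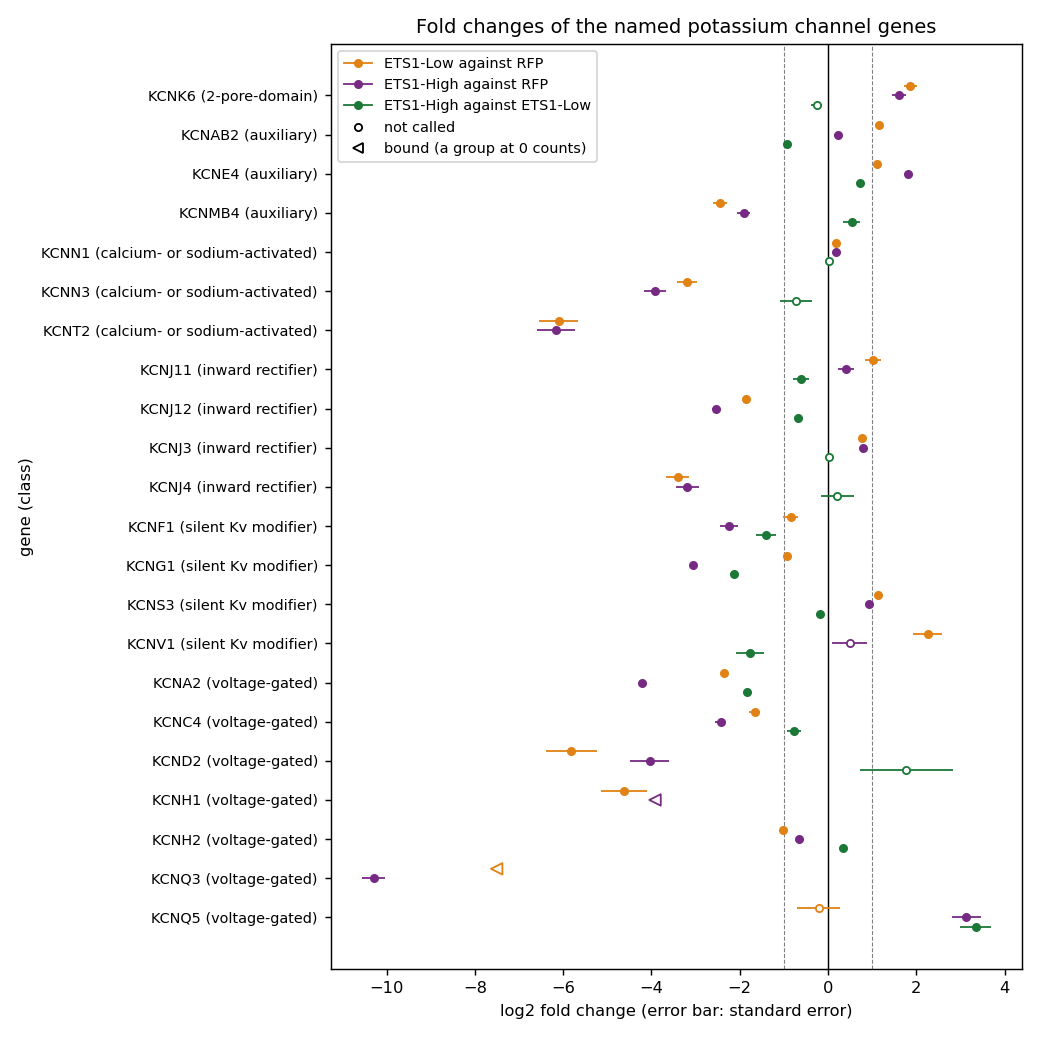
Log2 fold changes of the named potassium channel genes in the 3 comparisons, with standard errors; filled points were called, open circles were not, dashed lines mark 2-fold, and a triangle is the bound where a group had 0 counts. Comparisons with both groups at or under 3 counts in every library, and KCNH1 between the ETS1 groups, are left out; losses reach further from 0 than gains, and KCNQ5 shows the largest rise.

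For most members, the median change of the neighbouring genes was far smaller in size than the change of the member itself. Rises and falls cancel in such a median, so it does not show how far single neighbours moved. Over all tested genes of the ETS1-High contrast with RFP, the median was -0.01, but the median absolute change was 0.40. For the ETS1-Low contrast these values were 0.01 and 0.41. Over the 39 tested members, the median log2 fold change of tested genes within 10 Mb ranged from -0.51 to 1.03 in ETS1-High and from -0.70 to 0.59 in ETS1-Low. The sign of the neighbourhood matched that of 26 of 34 called members in ETS1-High and 26 of 35 in ETS1-Low. This match was not counted over all genes, so it has no background beside it. With the neighbourhood's median subtracted, all 21 of the 2-fold calls in ETS1-High kept a 2-fold difference, and 18 of 25 did in ETS1-Low. For KCNA2 the median of its 128 neighbours was 0.16 in ETS1-Low and -0.06 in ETS1-High, far from its own change. KCNT2 lay among neighbours with medians of -0.32 and -0.34.

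**Figure D5:**
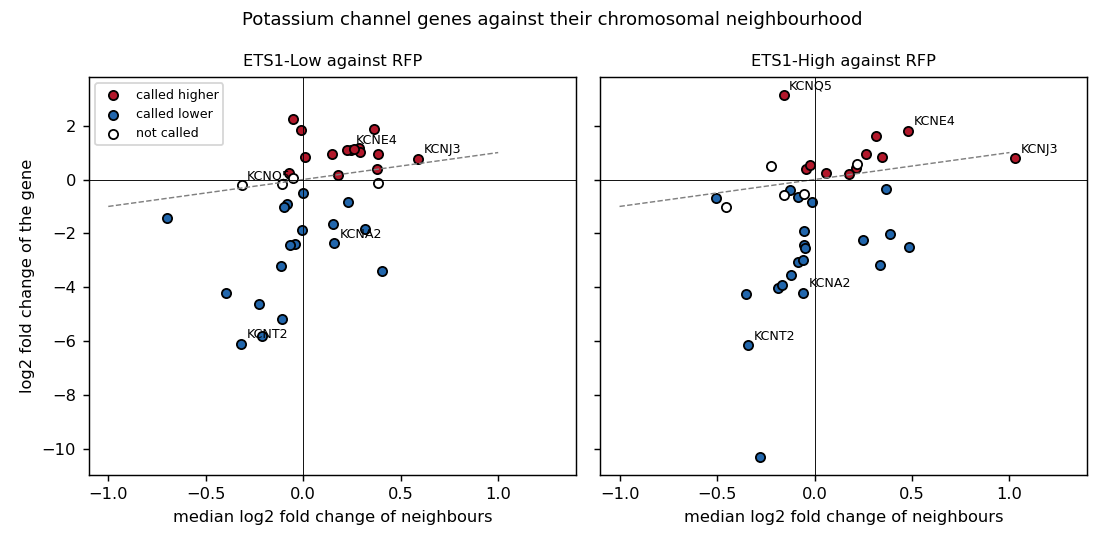
Log2 fold change of each tested potassium channel gene (vertical) against the median of tested genes within 10 Mb (horizontal), for ETS1-Low and ETS1-High against RFP; the dashed line marks equal values and genes with a group at 0 counts are left out. Most called genes lie far from the line, while KCNJ3, KCNN1 and, in ETS1-Low, KCNJ14 are among those near it.

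Genes that work with these channels were called about as often as other genes. The list was written from general knowledge with earlier results of the data in view. Of 19 tested channel partners, 9 were higher and 7 lower in ETS1-High against RFP, and 7 higher and 9 lower in ETS1-Low. That is 84.2% called in each contrast, beside 74.2% and 74.1% of all genes, and 26.3% changed at least 2-fold, beside 21% and 20.6%. CNTNAP2, which clusters KCNA channels beside the nodes of axons, stood at 95.5, 81.5 and 89.6 CPM in RFP, 0.03, 0.07 and 0.10 in ETS1-Low and 0, 0.04 and 0.07 in ETS1-High. Every ETS1 library was thus close to 0, and no ETS1 library overlapped RFP. ANK2, an anchor of membrane proteins, fell from a mean of 6.08 to 0.22 and 0.23 CPM, and GNG2, a G-protein subunit of the kind that opens KCNJ3 channels, from 34.8 to 5.73 and 5.94.

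DPP6, the auxiliary subunit that speeds KCND channels, rose in both ETS1 groups, where KCND2 lay near the floor and KCND1 was higher. It stood at 0.19, 0.51 and 0.25 CPM in RFP, 21.3, 22.1 and 22.0 in ETS1-Low and 9.98, 9.88 and 10.3 in ETS1-High, log2 fold changes of 6.11 ± 0.13 and 4.99 ± 0.14 (adjusted p = 1.31e-39 and 5.25e-34, edgeR). ETS1-Low lay above ETS1-High in every library. Of 6 tested related channels, 1 was higher and 4 lower in each ETS1 group against RFP. That is 83.3% called in each contrast, beside 74.2% of all genes in ETS1-High and 74.1% in ETS1-Low. TMEM38A, an intracellular potassium channel of muscle stores, rose from a mean of 12.2 to 35.8 CPM in ETS1-Low and 24.4 in ETS1-High. HCN3, a pacemaker channel, fell from 22.6 to 13.1 and 11.3 CPM, and TMEM175, a lysosomal channel, from 8.86 to 3.95 and 4.98. HCN2 had means of 0.86, 1.12 and 0.75 CPM and was called only between the ETS1 groups.

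Pumps and cotransporters that move potassium gave 4 higher and 6 lower of 12 tested in ETS1-High against RFP, and 3 higher and 6 lower in ETS1-Low. The shares called were 83.3% in ETS1-High, beside 74.2% of all genes, and 75% in ETS1-Low, beside 74.1%. SLC12A3, a cation-chloride cotransporter that itself carries sodium, was raised in ETS1-High, to 2.34, 2.74 and 2.31 CPM, beside at most 0.04 CPM in the other libraries, a ratio to RFP of 177 (95% exact interval 48.7 to 1470). ATP1B2, a beta subunit of the sodium pump, fell from a mean of 1.60 CPM to 0.27 in ETS1-Low and 0.36 in ETS1-High.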

How the data were processed

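The authors deposited 2 tables, per the file headers, of RSEM expected counts and of FPKM values per gene. The submitters' processing notes name cutadapt 4.4, STAR 2.7.3, featureCounts from Subread 2.0.3, limma 3.38.3 and GRCh38; how these relate to the RSEM tables and whether counting used strand are not given in the sources used here. The expected counts were rounded and fitted with edgeR 4.0.16 (R 4.3.3, robust quasi-likelihood, TMM, filterByExpr), all 9 libraries together, and p-values were adjusted by Benjamini-Hochberg over 17235 genes. The authors' FPKM values entered for levels between genes and as an alternative. Between 9.00% and 10.3% of the deposited expected counts per library were not whole, and replicate libraries differed beyond sampling noise (chi-square per gene 2.66 to 5.19). Intervals and the floor of 3 counts cover counting error only. The tests were also tried on simulated data.

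Members were named where called with at least 2-fold change and a mean of at least 1 CPM in a group, as the highest FPKM of a class, or, with at least 5 CPM in every group, where never called, which gave none. Up to 4 genes were named per companion list. Some genes that the rule selected are not reported here, though they remain in the counts. Members and lists were chosen with earlier results of these data known. Positions are from GENCODE v44 (GRCh38). A planned search for the pore signature in protein sequences was not run. Alternatives were DESeq2 1.42.0 (size factors and Wald test), limma voom and limma 3.58.1 on log2(FPKM + 1) and log2(FPKM + 0.1), no filter, at least 10 counts in every library, a replicate block, fits of the compared groups alone, omission of each library, and a test against 1.5-fold.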

Additional observations from a re-analysis of the deposited data

Results flagged for a closer look

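KCNJ14 was called in opposite directions in the ETS1 groups, higher than RFP in ETS1-Low and lower in ETS1-High. The log2 fold changes were 0.39 (adjusted p = 0.000938, edgeR) and -0.35 (adjusted p = 0.00584), and the direct test of ETS1-High against ETS1-Low gave -0.74 (adjusted p = 1.24e-07). All 3 ETS1-Low libraries exceeded all 3 ETS1-High libraries. The median log2 fold change of its 516 neighbours within 10 Mb was 0.38 in ETS1-Low and 0.37 in ETS1-High. KCNJ14 thus lay at the level of its neighbourhood in ETS1-Low and below it in ETS1-High. The same pattern of 3 calls held for 5.13% of tested members, beside 3.31% of all tested genes. KCNJ14 overlaps exons of other genes on the same and the opposite strand.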

How the results depend on the processing

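Among potassium channel genes, some counts moved under other settings. Shares of all genes were not computed under these settings, so the counts stand without a background. The setting with at least 10 counts in every library drops genes that are low in any library, whether they fell or rose. For ETS1-High against RFP it gave 11 lower (9 higher) and 8 changed at least 2-fold. For ETS1-Low against RFP it gave 8 lower (11 higher) and 10, and for ETS1-High against ETS1-Low 4 changed 2-fold. On FPKM with a pseudocount of 1, the 2-fold counts were 6, 6 and 2, and with 0.1 the count in ETS1-Low was 14. Both gave 7 higher in ETS1-High, 13 lower in ETS1-Low and 3 higher between the ETS1 groups. The test against 1.5-fold gave 6 higher in ETS1-High, and 2 higher and 8 lower between the ETS1 groups. Leaving out 1 library gave 21 to 24 lower and 9 to 11 higher in ETS1-High, 20 to 21 and 12 to 15 in ETS1-Low, and 15 to 19 and 3 to 6 between the ETS1 groups, where the 3 came without ETS1-Low replicate 1.

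Direction turned for KCNAB2 in ETS1-High against RFP on FPKM (-0.16 and -0.20), and, for differences that were not called, for KCNN1 in ETS1-High against ETS1-Low on FPKM (-0.051 and -0.057). Leaving out single libraries, the range was -0.049 to 0.079 for KCNN1, -0.066 to 0.50 for KCNJ4 in ETS1-High against ETS1-Low and -0.54 to 0.15 for KCNQ5 in ETS1-Low against RFP. The cause was not tested. Of 39 named 2-fold calls, 38 kept their direction and passed the threshold in every alternative that gave a value, though not always with a 2-fold change; KCNH1 between the ETS1 groups did not. Libraries with the same replicate number correlated at -0.07 to 0.11 in their deviations, and those with different numbers at -0.11 to 0.085. No pairing by number was thus visible, though 3 libraries per group cannot exclude it. The replicate block gave 23 lower and 11 higher in ETS1-High, 20 and 14 in ETS1-Low, and 16 and 5 between the ETS1 groups. Depth limits the genes under 3 counts, whose folds are bounds or ratios with wide intervals.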
